A study of Mus musculus with 3647 samples.

Results

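Ribosomal proteins are the protein part of the ribosome, which has a small and a large subunit. Their genes are transcribed at high level in nearly every cell, and most of their mRNAs carry a terminal oligopyrimidine tract, a run of C and T at the 5′ end through which growth signals regulate translation. In the brain, neurons, oligodendrocytes and astrocytes all make these proteins, and a mature mRNA spends most of its life in the cytoplasm, so a nucleus holds only part of a cell's ribosomal protein mRNA.

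The cytoplasmic ribosomal protein genes were taken as every symbol made of Rpl or Rps and a digit, with Rplp0, Rplp1, Rplp2 and Rpsa added, and without Rps6k kinases, pseudogene names ending in -ps and Rik clones. The rule found 86 of the 23420 genes in the tables. Of these, 77 are the standard proteins (46 of the large and 31 of the small subunit), and 9 are paralogs or bear a ribosomal name for another reason: Rpl3l, Rpl7l1, Rpl10l, Rpl22l1, Rpl36al, Rpl39l, Rps27l, Rps4y2 (current symbol Rps4l) and Rps19bp1, which encodes a protein that binds RPS19 and is not a ribosomal subunit.

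The study profiled single mouse nuclei by a plate-based full-length method (Smart-seq2), around the thalamic reticular nucleus (TRN), a sheet of GABAergic neurons that surrounds the thalamus. Of 3647 labelled samples, 2653 had values. The groups were TRN nuclei sorted as Violet+ and NeuN+, NeuN being a neuronal nuclear antigen (28.4% of the 2653), TRN nuclei sorted as Violet+ alone (26.2%, here called unselected), Violet+ nuclei of adjacent thalamus and globus pallidus (240 nuclei), and hippocampal nuclei with no sort signal in the labels (43). Violet+ GFP+ nuclei came from striatum (71 nuclei), hippocampus (440), the M2 area (6.33% of the 2653) and the somatosensory area (5.62%). The 95 Patch-seq samples were TRN neurons collected after electrical recording. The series text calls the GFP-sorted groups Pvalb+, yet Pvalb was detected in 21.6% of the hippocampal, 41.7% of the M2, 59.7% of the somatosensory and 12.7% of the striatal nuclei. The labels describe all groups, Patch-seq included, as nuclear RNA, and they give no strain, genotype, GFP driver, age or animal. Each group therefore counts as 1 sample, no p-value is given, and the spread is the range over plates with at least 5 nuclei, read from column names.

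Cell classes came from clusters formed without the 86 genes. A marker counted for a cluster where at least 50 percent of its nuclei detected it. Neuron-like clusters had at least 5 of 7 neuronal markers, and the GABAergic-like ones among them at least 3 of 4 GABAergic markers, Gad1, Gad2 and Slc32a1 among them. The GABAergic-like clusters held 57.9% of the NeuN-selected and 29.8% of the unselected TRN nuclei. Clusters named by markers of striatal projection neurons, which are GABAergic too, were kept out of this class, as were clusters led by markers of another class. Oligodendrocyte-like nuclei of unselected TRN had 8 of 8 of their markers (Mbp, Mog and others) and astrocyte-like nuclei 7 of 8 of theirs. The share of nuclei with a value above 0 is called the detected share, and its interval is exact binomial (Clopper-Pearson, 95%) and covers counting error only. Sequencing depth is unknown for these values, so detected genes per nucleus stand in for it.

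RefSeq promoter sequences (GRCm38.p6, 250 bases before to 50 after the start) were at hand for 65 of the 86 genes. A run of at least 8 C or T that touched the stretch from 10 bases before to 15 after the start was in 43.1% of them (28 of 65), against 15.2% of all 27025 promoters in that table. The letters CCGGAAG, on either strand, were in 38.5% of the ribosomal promoters and 9.12% of all, and AAGATGGC in 7.69% and 2.88%. The 6 windows below, each of 15 bases on either side of the RefSeq start, show a gene with a long run (Rpl7a), a stalk gene (Rplp2), a paralog pair that differs in its run (Rpl22 and Rpl22l1) and the small-subunit genes with the lowest levels in astrocyte-like nuclei (Rps27 and Rps28). Capitals mark the longest C or T run.
Rpl7a: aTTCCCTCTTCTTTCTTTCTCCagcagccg
Rplp2: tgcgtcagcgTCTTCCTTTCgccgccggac
Rpl22: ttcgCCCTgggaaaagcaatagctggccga
Rpl22l1: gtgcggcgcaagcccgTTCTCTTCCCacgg
Rps27: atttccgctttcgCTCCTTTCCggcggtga
Rps28: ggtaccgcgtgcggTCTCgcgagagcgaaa
The runs are 21 bases in Rpl7a (chr2:26910792-26910821, plus strand), 10 in Rplp2 (chr7:141447636-141447665, plus), 4 in Rpl22 (chr4:152325711-152325740, plus), 10 in Rpl22l1 (chr3:28805493-28805522, plus), 9 in Rps27 (chr3:90213634-90213663, minus) and 4 in Rps28 (chr17:33824548-33824577, minus).

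The 86 genes together held between 1 and 2 percent of all TPM, a length-normalised abundance with the same total in each nucleus, in the typical nucleus of every sorted group. The median share was 1.32% in NeuN-selected TRN (8 plates with medians from 0.953% to 1.67%), 1.54% in unselected TRN (13 plates, 1.15% to 1.86%) and 1.62% in adjacent tissue (4 plates, 1.16% to 1.84%). The level was 1.51% in GFP-sorted hippocampus (7 plates, 1.197% to 2.29%), 1.62% in hippocampus with no sort label (1 plate), and, among cortical nuclei, 1.42% in M2 (3 plates, 1.054% to 1.79%) and 1.053% in the somatosensory area (2 plates, 0.977% and 1.17%). Striatum, with 1 plate, had 1.42%. Patch-seq stood highest at 2.10%, with 0.0933% in its lowest and 14.6% in its highest sample. In order of level the sorted groups are neighbours whose plates overlap, and somatosensory cortex, the lowest, still overlaps the lower NeuN-selected plates. In sum, large-subunit genes held more than small-subunit genes everywhere, 0.780% against 0.464% in NeuN-selected TRN and 1.16% against 0.815% in Patch-seq. The large subunit also has more genes, 46 against 31 standard ones, and these sums are not values per gene.

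**Figure D1:**
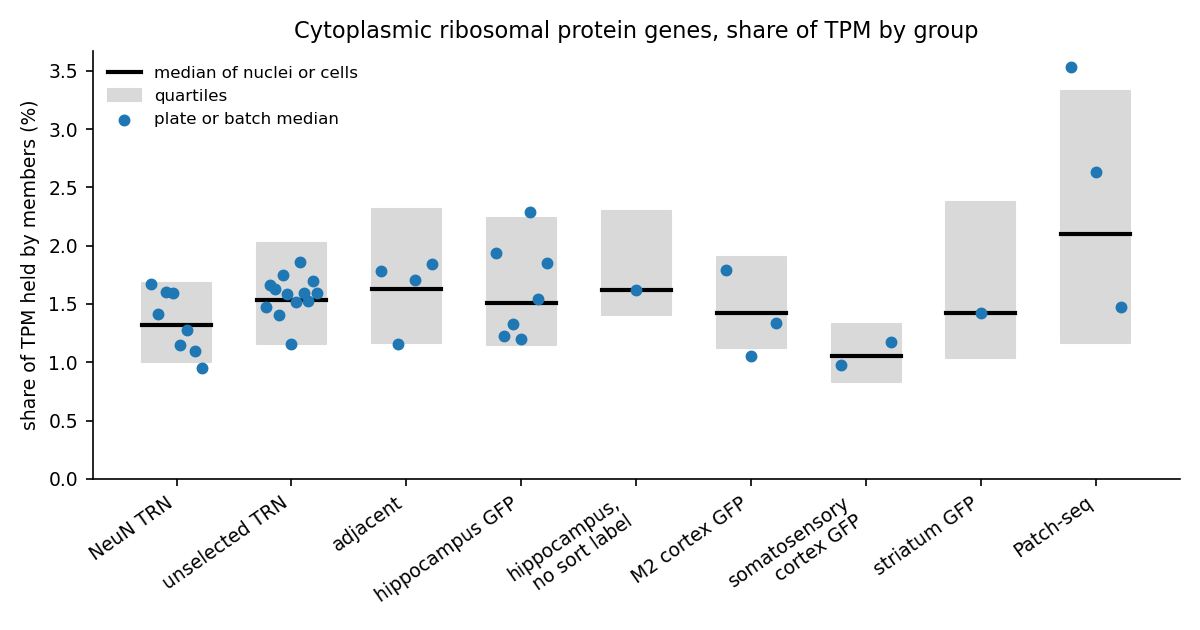
Share of TPM held by the 86 ribosomal protein genes in each group; the axis is the share in percent, bars are medians over nuclei, boxes quartiles and points the medians of single plates or batches. The sorted groups lie between 1.053% and 1.62%, and Patch-seq at 2.10% has batches from 1.47% to 3.54%.

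The number of the 86 genes seen per nucleus went with the number of genes detected in all. The medians were 45 of the 86 and 4983 of all genes in NeuN-selected nuclei, 26 and 2426 in unselected nuclei, and 73 and 6654 in Patch-seq. One M2 nucleus reached 17.8% of TPM with 79 of the 86 genes detected; it sat in an unnamed cluster and had 2860 detected genes.

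Within NeuN-selected TRN, a few large-subunit genes led. Rpl3, whose protein forms part of the peptidyl transferase centre (GRCm38 chr15:80077791-80091868, minus strand), had a mean of 585.8 TPM, plate means of 401.8 to 696.95 and a detected share of 82.2%. Rpl10, needed for joining of the subunits, had 457.6 TPM and Rpl4, a protein of the exit tunnel, 447.1 TPM. Of the small subunit, Rps2, at the mRNA entry site, had 377.9 TPM and was detected more widely than Rpl3, in 85.7% of nuclei. The order is only as firm as the plates: the ranges of these 4 overlapped. In addition, Rpl3 shares 85.6% of its 50-base words with other annotated genes and Rpl10 92.1%, so their reads could be split in the authors' counting and their levels are uncertain.

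At the low end, Rpl30 had a mean of 16.3 TPM (plates 6.68 to 39.4) and was detected in 5.98% of NeuN-selected nuclei, and Rpl37 had 23.5 TPM. Rpl39l was listed at 0 in every NeuN-selected nucleus (upper limit of the detected share 0.489%). The rank order of the 77 standard genes by mean TPM was close between groups: Spearman's rho over these genes, which are not independent replicates, was 0.95 between NeuN-selected and unselected TRN, 0.96 with GFP-sorted hippocampus, 0.81 with somatosensory cortex and 0.84 with Patch-seq.

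Genes with longer coding sequences had higher levels per length. In NeuN-selected TRN the 19 shortest standard genes (coding length 78 bases and up) had a median of 72.8 TPM, and the 19 longest (up to 1260 bases) a median of 257.5 TPM. Spearman's rho of coding length and mean TPM over the 77 genes was 0.77 there, 0.74 in unselected TRN, 0.50 in GABAergic-like somatosensory nuclei and, in the Patch-seq batches described below, 0.39, 0.35 and 0.60. TPM is already divided by length, so this is an order in length-normalised levels, and whether it comes from the cells or from library making or counting was not tested.

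**Figure D2:**
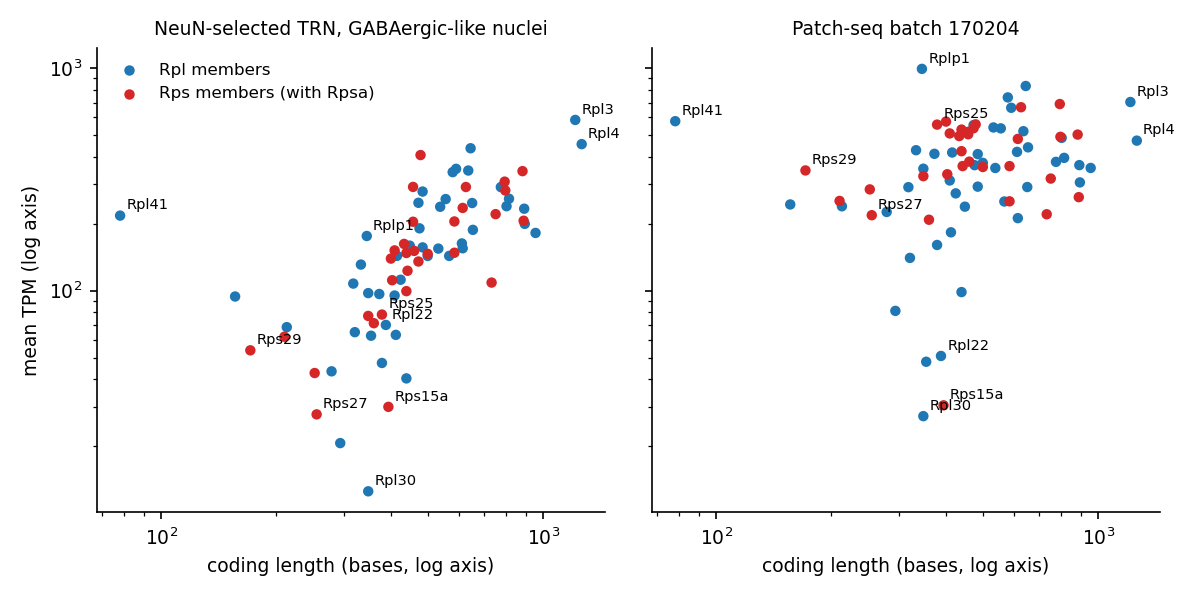
Mean TPM (log axis) of the 77 standard genes against coding length in bases, on a log axis, in sorted nuclei and in Patch-seq samples, with 1 point per gene. In NeuN-selected GABAergic-like nuclei the short genes have a median of 68.6 and the long ones 258.8 TPM; in Patch-seq batch patchseq_170204 the medians are 253.05 and 440.5 TPM.

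The stalk proteins Rplp0, Rplp1 and Rplp2, which recruit translation factors, and Rpsa, the laminin receptor homolog of the small subunit, are listed apart by their roles. In NeuN-selected GABAergic-like nuclei their means were 181.7 TPM for Rplp0 (plates 99.3 to 235.9), 176.04 for Rplp1 (109.8 to 304.3), 97.5 for Rplp2 (33.4 to 201.8) and 206.1 for Rpsa (117.2 to 330.8). The median of the 77 standard genes in these nuclei was 151.7 TPM, so Rplp0, Rplp1 and Rpsa lay above it and Rplp2, whose protein pairs with that of Rplp1, below it.

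Paralogs ranged from near 0 to above their partner. Rpl3l, a muscle form, had 2.74 TPM against 585.8 for Rpl3 in NeuN-selected TRN, and Rpl10l, a testis form, 0.616 against 457.6 for Rpl10. Rpl22l1 was above Rpl22 (124.02 against 69.2 TPM, a log2 ratio of −0.83 for Rpl22 over Rpl22l1), also in Patch-seq (159.7 against 43.2, −1.86), while GABAergic-like somatosensory nuclei had the reverse order (73.1 against 102.8, 0.49). Rps4y2 was well below Rps4x in NeuN-selected TRN (44.4 against 322.4 TPM). Rpl36al was above Rpl36a in NeuN-selected TRN (142.3 against 67.8 TPM) and close to it in Patch-seq (117.9 against 127.1). Rpl7l1 combined a low mean of 48.3 TPM with the widest detection of the pair, 85.4% of nuclei against 54.7% for Rpl7 at 257.5 TPM. None of the 7 pairs aligned (all but Rps4x and Rps4y2) shared a 50-base word in their coding sequences, with identities from 55.99% to 87.9%.

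Of the 3 named classes compared in unselected TRN, oligodendrocyte-like nuclei had the highest and astrocyte-like nuclei the lowest ribosomal protein share; an unnamed cluster with microglial genes had more than any of them (2.09%, 33 nuclei). The medians were 1.74% in oligodendrocyte-like nuclei (42.7% of the unselected nuclei; plates 1.36% to 2.19%), 1.49% in neuron-like nuclei (41.2%; plates 1.19% to 2.02%) and 0.975% in 79 astrocyte-like nuclei (0.692% to 1.32%). Comparing classes on the same plate, oligodendrocyte-like medians were above neuron-like ones on 9 of 12 plates and below on 3 (X083116P2, X083116P3 and X083116p1). These 3 are among the 4 plates with that number in their names, and oligodendrocyte-like medians were above on all 8 of the other plates. Astrocyte-like medians were below neuron-like ones on 9 of 10 plates. Plates of adjacent tissue gave the same order, with 2.1999% in 94 oligodendrocyte-like, 1.52% in 92 neuron-like and 0.934% in 43 astrocyte-like nuclei, and the 3 classes kept it on 4 of 4 plates. Glia-like nuclei had fewer detected genes (medians 1989 and 2159) than neuron-like ones (4374.5). In a window of 1500 to 3000 detected genes, added after the data were seen, neuron-like nuclei had 1.99% (30 nuclei), above the 1.73% of the oligodendrocyte-like ones, and astrocyte-like nuclei were still lowest at 0.975%.

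**Figure D3:**
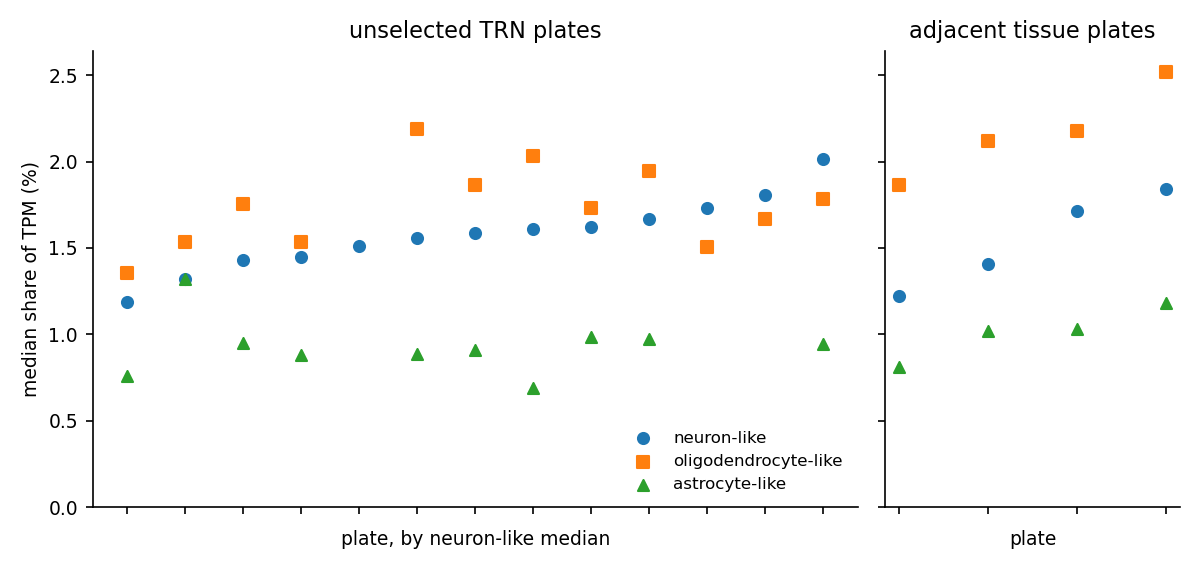
Median share of TPM (percent, vertical axis) of the 3 classes on each plate, with plates in order of their neuron-like median; a class needs 5 nuclei on a plate. Among plates with an astrocyte-like median, it lies lowest on every plate but 1, where it meets the neuron-like median at 1.32%. Oligodendrocyte-like medians are mostly highest.

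Gene by gene, how oligodendrocyte-like and neuron-like nuclei differed in ribosomal genes depended on the scale. A gene was compared where its mean over both groups was at least 5 TPM, and called where the log2 ratio of mean TPM, each plus a pseudocount of 1, was at least 1 in size; the pseudocount understates changes of low genes. Of the 83 ribosomal genes compared, 2 were called higher and 7 lower in oligodendrocyte-like nuclei, where 15% of all genes compared were called higher and 35.6% lower. The ribosomal median was 0.04 and that of all genes −0.48. As a difference of mean log2(TPM + 1), which weighs detection more, 61 of the 83 were past the same size, all lower (50.1% of all genes in either direction), with a median of −1.39 against −0.88 over all genes. Without plate X083116P2, 5 in place of 9 were called in either direction.

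Rps27a, which encodes a ubiquitin fusion, was 1 of the 2 called higher: it had a mean of 277.2 TPM in oligodendrocyte-like nuclei (plates 42.7 to 789.4) and 136.3 in neuron-like nuclei (58.4 to 342.7), a log2 ratio of 1.02. It was nonetheless detected in fewer oligodendrocyte-like nuclei (33.1% against 55.2%), so its mean came from fewer nuclei with larger values. Rplp0 had 403.1 against 204.7 TPM (0.97). Among the lower genes were Rps15a (8.05 against 29.9 TPM, −1.77; plates 0.309 to 26.2 and 12.2 to 89.7) and Rpl36al (70.5 against 182.3 TPM, −1.36). For all of these the plate ranges of the 2 classes overlapped.

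In astrocyte-like nuclei, 36 of 84 ribosomal genes compared were called lower and 1 higher, where 35.7% of all genes were called lower and 21.3% higher. The ribosomal median was −0.79, against −0.35 over all genes, and 70 of the 84 were below 0. As a difference of mean log2(TPM + 1), 71 of the 84 were past the fold, all lower (47.2% of all genes in either direction), with a median of −2.05 against −0.79. These nuclei were compared with the same neuron-like nuclei as the oligodendrocyte-like ones.

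Beside Rps19bp1 (1.85 against 38.4 TPM, −3.79, and −4.42 without plate X012116_TRNp4), the small-subunit genes Rps27, Rps28 and Rps19 were among the lowest. Rps28 was detected in 1.27% of the 79 astrocyte-like nuclei (interval 0.0320% to 6.85%) with a mean of 1.90 TPM, against 31.8% and 60.8 TPM in neuron-like nuclei, a log2 ratio of −4.42 (−5.96 without plate X012116_TRNtest). It was the 1 ribosomal gene here whose plate means were all lower (0 on each plate with at least 5 astrocyte-like nuclei, against 6.22 to 117.1 TPM), where 7.22% of all genes were lower without overlap. Rps27 was listed at 0 in all 79 nuclei (upper limit of the detected share 4.56%) and had 43.6 TPM in neuron-like nuclei, 7.69% of which detected it. It was rare in oligodendrocyte-like nuclei too (6.08%). Other genes share 98.6% of its 50-base words, so its level is uncertain. Rps19, mutated in Diamond-Blackfan anemia, was detected in 3.797% against 41.96% (10.3 against 145.5 TPM, −3.70; −5.65 without plate X012116_TRNp4), and Rps26 in 5.06% against 30.1% (8.68 against 73.1 TPM, −2.94; −3.54 without plate X083116P4). Of the large subunit, Rpl22, which binds RNA and is dispensable in many cells, stood lowest at 7.05 against 73.5 TPM (−3.21, and −5.19 without plate X012116_TRNp4), while its paralog Rpl22l1 had 82.3 against 160.7 TPM (−0.96). Astrocyte-like nuclei had fewer detected genes than neuron-like ones, which bears on detected shares. Oligodendrocyte-like nuclei, which had few detected genes as well, detected Rps28 in 13.2%, Rps19 in 14.9%, Rps26 in 17.6% and Rpl22 in 13.5%.

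The astrocyte-like nuclei of adjacent tissue shared some of these differences. In adjacent tissue 32 of 84 ribosomal genes were called lower in astrocyte-like nuclei and 4 higher (39.7% and 21.9% of all genes), and 6 of 83 lower and 13 higher in oligodendrocyte-like nuclei (41.4% and 16.7%). Rps28 was again lower in astrocyte-like nuclei (12.2 against 103.6 TPM, −2.98), as was Rps26 (26.98 against 104.6 TPM, −1.92). Rps27 (89.8 against 79.7 TPM, 0.17), Rps19 (127.5 against 147.6 TPM, −0.21) and Rpl22 (59.5 against 65.6 TPM, −0.14) were not, although each was detected in fewer astrocyte-like nuclei (4.65%, 11.6% and 4.65%) than neuron-like ones (10.9%, 40.2% and 34.8%). Whether the tissues differ in this was not tested.

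Rpl3l was the 1 gene called higher, at 25.2 against 1.07 TPM (3.66), from 3.797% of the astrocyte-like nuclei. Its log2 ratio was 2.48 without plate X012116_TRNtest and 4.38 without plate X012116TRNp6. It was also higher in adjacent tissue (27.4 against 0.168 TPM, 4.60). Only 3 of all 240 adjacent nuclei detected it, 1 of them neuron-like, so that difference rests on very few nuclei. Rpl21, a large-subunit gene detected in 55.7% and 77.97%, had 269.5 against 203.4 TPM (0.40), above the ribosomal median by more than 1, and 392.3 against 201.7 TPM (0.96) in adjacent tissue. The stalk genes fell unevenly: Rplp1 (89.01 against 276.7 TPM, −1.63) and Rplp2 (32.1 against 127.6 TPM, −1.96) were called lower, Rplp0 (163.4 against 204.7 TPM, −0.32) was not, and Rpsa had 74.4 against 286.6 TPM (−1.93).

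**Figure D4:**
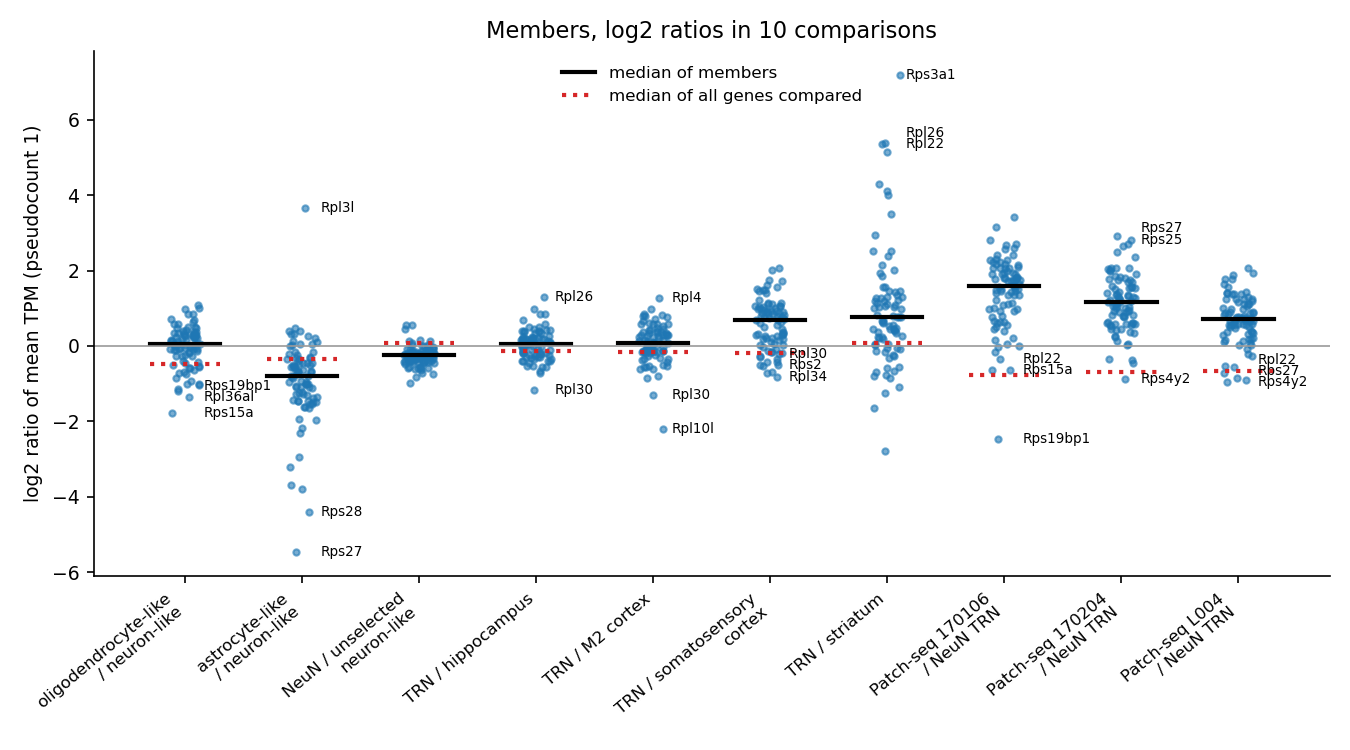
Log2 ratio of mean TPM (pseudocount 1) of each ribosomal gene compared, in 10 comparisons; points are genes, black bars the median of these genes and red dotted bars that of all genes compared, and some of the farthest genes are named, some labels being moved up to stay apart. The ribosomal median lies below that of all genes in the astrocyte-like and NeuN comparisons and above it in the other 8; where a gene is listed at 0 in 1 group, such as Rps27 in astrocyte-like or Rpl26 in striatal nuclei, the pseudocount sets the point.

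Lists of other genes, of translation, of mitochondrial ribosomes and of the respiratory chain, were compared by the ratio of means. In oligodendrocyte-like against neuron-like nuclei, where 15% of all genes were called higher and 35.6% lower, 20 of 76 mitochondrial ribosomal protein genes were called lower and 3 higher (median −0.48), and 44 of 82 respiratory chain genes were lower and 0 higher (median −1.04; the largest, Cox4i1, at −0.31). Of 21 non-ribosomal genes with terminal oligopyrimidine mRNAs, 2 were higher, among them Eef1a1, the main elongation factor, at 1.46, and 2 lower. In astrocyte-like nuclei, where 35.7% of all genes were called lower, 12 of those 21 were lower and 0 higher (median −1.20). There 9 of 19 ribosome biogenesis genes (−0.94) and 8 of 20 translation factors (−0.56) were lower, shares nearer to that of all genes.

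NeuN selection divided into 2 sets of plates. Neuron-like nuclei had a median share of 1.32% with NeuN selection and 1.49% without, a ratio of 0.886. The 4 NeuN plates whose names hold NP had medians from 1.42% to 1.66%, and the 4 whose names hold TRNp had 0.946% to 1.28%, with no overlap. The ratio to unselected nuclei was 1.04 from the NP plates alone and 0.748 from the TRNp plates alone. The sets also differed in Rn45s, the ribosomal RNA precursor locus, with a median of 10.4% of TPM against 2.94%, and in detected genes, 4474 against 5452. The part of these in the difference was not tested; without Rn45s in the total the medians were 1.74% and 1.15%.

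Of the neuron-like nuclei, those sorted for NeuN and those not differed in no ribosomal gene past the fold, by a rule under which 3.67% of all genes were called higher and 2% lower. Of the 83 genes compared, 73 were below 0 and 10 above, with a median of −0.25 (0.07 over all genes); as a difference of mean log2(TPM + 1) the median was 0.39 (0.34 over all genes) and 5 were past the fold, all higher (7.99% of all genes in either direction), so the sign depends on the scale. Rps21 (49.1 against 98.7 TPM, −0.99) and Rpl37a (51.9 against 92.8 TPM, −0.83), both short, lay lowest, and Rpl7a (234.2 against 158.015 TPM, 0.56) and Rpl7l1 (48.6 against 32.9 TPM, 0.55) highest.

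Among GABAergic-like nuclei, those of somatosensory cortex and striatum had lower ribosomal protein shares than TRN. The median was 1.38% in TRN, both sorts together, 1.33% in hippocampus (98 nuclei), 1.34% in M2 (60.1% of its nuclei), 1.00% in the somatosensory area (120) and 0.890% in striatum (14). TRN plates spread from 0.939% to 2.35% and overlapped the plates of hippocampus, M2 and the somatosensory area, while the 1 striatal plate lay below them all. TRN nuclei and the other regions were deposited in separate tables and clustered separately, and all 4 comparisons use the same TRN nuclei.

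By the ratio of mean TPM, few ribosomal genes were past the fold against hippocampus or M2 cortex. Against hippocampus 1 of 83 genes was called higher in TRN and 1 lower, where 7.27% and 12.5% of all genes were (ribosomal median 0.04, all genes −0.13), and against M2 cortex 1 of 84 was higher and 2 lower, where 10.5% and 14.4% were (0.07 and −0.15). Both medians changed sign when clusters were coarser (−0.0412 and −0.0236). As a difference of mean log2(TPM + 1), the hippocampal median was −0.28 (−0.21 over all genes), with 3 of 83 higher and 5 lower (15.9% of all genes in either direction). On that scale M2 cortex was not near TRN: the median was 0.73 (0.15 over all genes), with 32 of 84 higher in TRN and 1 lower (18.5% of all genes). Without plate X041317p7 the ratio of the TRN to the hippocampal share was 0.974 in place of 1.03, and without plate pfcP4 that to the M2 share was 0.944 in place of 1.03. Rpl4 had 470.2 TPM in TRN (plates 92.6 to 999.4) and 195.1 in M2 cortex (131.3 to 238.8), a log2 ratio of 1.26. Rpl30 was lower in TRN than in both regions (15.1 against 35.04 and 38.7 TPM), but its log2 ratios of −1.16 and −1.30 came to −0.48 without plate X041317p6 (above −1 also without X041317p1) and −0.12 without plate X061616p1. Without the latter plate 14 in place of 3 genes were called against M2 cortex, and against hippocampus the 2 calls became 0 without plate X041317p6 and 4 without plate X061616p4.

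Against somatosensory cortex, 22 of 83 ribosomal genes were called higher in TRN and 0 lower, where 15.6% of all genes were higher and 18.7% lower; the ribosomal median was 0.70 and that of all genes −0.18. As a difference of mean log2(TPM + 1), 58 were higher and 0 lower (26.3% of all genes in either direction), with medians of 1.39 and 0.21. Rps3a1 had 307.5 TPM in TRN (plates 49.9 to 715.2) and 92.4 in somatosensory cortex (91.3 and 93.5), a log2 ratio of 1.72, with detected shares of 62.4% and 26.7%. Rpl26 (41.1 against 9.51 TPM, 2.00) was also called higher, from detected shares of 9.64% and 1.67%. Rpl14 (196.4 against 65.8 TPM, 1.56) was among 4 genes whose TRN plates all lay above both somatosensory plates, where 2.81% of all genes did. Some of the most abundant genes went the other way without being called: Rps2 had 365.7 against 602.4 TPM (−0.72) and Rpl7a 216.9 against 310.9 (−0.52). Respiratory chain genes (34 of 81 higher, 0 lower, median 0.89) and the non-ribosomal oligopyrimidine genes (9 of 21 higher, median 0.87, Eef1a1 at 2.16) were higher in TRN as well, while 0 of 19 ribosome biogenesis genes were called. Detected genes had medians of 4813 in TRN and 4025 in somatosensory nuclei.

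The striatal comparison rests on 14 nuclei of 1 plate, in which 5 ribosomal genes were listed at 0. It leaves out 18 nuclei of that plate named as striatal projection neurons. In it 36 of 83 genes were called higher in TRN and 4 lower, against 31.2% and 23.9% of all genes. Rps3a1, at 307.5 TPM in TRN, had 1.10 TPM in striatum, and Rps27l, a stress-responsive paralog, had 22.9 TPM in TRN against 163.2 in striatum (−2.78).

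Unnamed clusters of the GFP-sorted groups had higher shares, with medians of 2.38% in hippocampus (23.2% of its GFP-sorted nuclei), 2.26% in M2 cortex (19 nuclei) and 3.08% in striatum (21), and median detected genes of 2291, 2188 and 2482.

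How the ribosomal protein share of Patch-seq samples stood to that of sorted TRN nuclei differed by batch. Some batch medians lay above all plates of the nuclei and another lay within them. Column names divide the 95 samples into 3 sets, named here by their shared part and taken as the 3 batches of the series text. The 7 samples of batch patchseq_170106 had shares of 1.92%, 1.41%, 2.73%, 4.27%, 9.74%, 5.03% and 3.54%. Batch patchseq_170204 (34 samples) had a lowest, median and highest share of 0.995%, 2.63% and 8.42%, and batch L004 (54 samples) of 0.0933%, 1.47% and 14.6%. NeuN-selected GABAergic-like TRN nuclei had a median of 1.28% (plates 0.939% to 1.67%), so the medians of batches patchseq_170106 and patchseq_170204 lay above all 8 plates and that of L004 lay within them. L004 itself holds several series of names. Its samples with names from X740 to X748 had shares of 0.0933% to 0.440%, and those from M455 to M460 of 0.156% to 0.777%. All its other samples had at least 0.632%. The part of these series in the L004 median was not tested. Among samples with 3000 to 6000 detected genes the L004 median was below that of the nuclei, 1.16% against 1.36%, a ratio of 0.859 in place of 1.15.

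**Figure D5:**
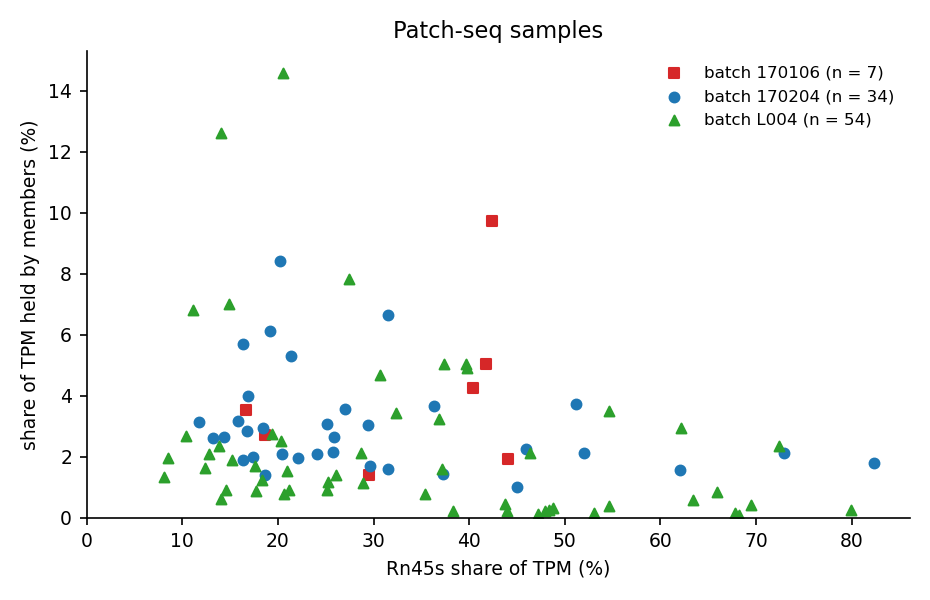
Ribosomal protein share of TPM against the Rn45s share of TPM, both in percent, for the 95 Patch-seq samples, colored by batch. Batch L004 spans 0.0933% to 14.6%, and within it the 2 shares, which have the same total, have a Spearman's rho of −0.43 over 54 samples.

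Rn45s took a larger part of the Patch-seq libraries, with medians of 40.4%, 24.6% and 29.8% in batches patchseq_170106, patchseq_170204 and L004 against 5.59% in the nuclei. With Rn45s left out of the total, the median shares were 4.24%, 3.69% and 1.93% against 1.38%. Markers of other cells also differed: the summed level of 8 microglial markers had medians of 738.2, 26.3 and 161.6 TPM in the batches and 0 in the nuclei (ranges 49.8 to 4450, 0 to 20162, 0 to 18774 and 0 to 517.5), and that of 8 oligodendrocyte markers 3103, 1491 and 1925 against 99.03 TPM. In batch patchseq_170106, 7 of the 8 microglial markers were detected in at least 50 percent of samples, against 0 of 8 in the nuclei. Their part in the ribosomal values was not tested.

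Gene by gene, 59, 49 and 25 of 83 ribosomal genes were called higher in batches patchseq_170106, patchseq_170204 and L004 than in the nuclei, and 1, 0 and 0 lower. Of all genes compared, 9.81%, 6.16% and 6.57% were called higher and 41.3%, 32.1% and 33.2% lower. The ribosomal medians were 1.59, 1.16 and 0.72, against −0.76, −0.68 and −0.66 over all genes. As a difference of mean log2(TPM + 1), 77 were higher in patchseq_170204 and 48 in L004, with 0 lower (25.6% and 23.3% of all genes in either direction). In 70, 65 and 52 of the ribosomal genes the batch mean was above all 8 plate means of the nuclei, where 12.9%, 8.47% and 9.55% of all genes were. The 3 comparisons share the same nuclei. Between batches, 29 of 83 genes were higher and 1 lower in patchseq_170106 than in L004 (15.6% and 20.4% of all genes), 10 and 0 in patchseq_170204 than in L004 (11% and 10.9%), and 8 and 4 in patchseq_170106 than in patchseq_170204 (14.8% and 19.7%).

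Rps29, a short zinc-binding protein of the small-subunit head (GRCm38 chr12:69157722-69159186, minus strand), moved most in 2 of the batches. Its mean was 53.95 TPM in the nuclei (plates 27.2 to 104.5) and 588.2, 346.8 and 231.1 TPM in the batches, log2 ratios of 3.42, 2.66 and 2.08. The stalk gene Rplp1 was at 176.04 TPM in the nuclei (plates 109.8 to 304.3) and at 1586, 991.8 and 610.96 TPM in the batches (3.16, 2.49 and 1.79) and was the first-ranked ribosomal gene of batches patchseq_170106 and patchseq_170204. Rps25, a small-subunit protein used by viral internal ribosome entry sites, was at 78.1 TPM (54.9 to 102.98) and at 515.8, 557.2 and 270.7 TPM (2.71, 2.82 and 1.78). All 3 genes lay above every plate of the nuclei in every batch.

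Several genes departed from this in all batches. Rpl22 had 44.6, 50.9 and 38.2 TPM in the batches and 70.2 in the nuclei (−0.64, −0.46 and −0.86), and Rps4y2 had 50.96, 30.9 and 28.9 against 57.1 (−0.16, −0.87 and −0.96), all within the plate range of the nuclei. Both were nonetheless detected in more Patch-seq samples, Rpl22 in 85.7%, 79.4% and 38.9% against 33.7%. Rps27 differed between batches, at 218.3 TPM in patchseq_170204 (2.93) but 21.5 and 14.4 TPM in patchseq_170106 and L004, against 27.8 in the nuclei; its sequence is shared with other genes over 98.6% of its 50-base words, so this level is uncertain. Single plates of the nuclei moved these small ratios: Rps4y2 reached 0.08 in batch patchseq_170106 without X102816NP1 or X102816NP4, −1.01 in patchseq_170204 without X102816_TRNpA or X102816_TRNpC and −1.10 in L004 without either of these, and Rps27 reached −1.07 in L004 without X102816NP3.

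Shorter genes differed more from the nuclei. Spearman's rho of coding length and the log2 ratio over 77 genes was −0.44 for batch patchseq_170106, −0.67 for patchseq_170204 and −0.29 for L004, and it was 0.44 for NeuN-selected against unselected and 0.33 for TRN against somatosensory cortex. The share of a gene's 50-base words found in other genes had rho between −0.18 and 0.19 in the 12 comparisons with sorted nuclei.

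The lists of other genes can be read against the shares of all genes in the 3 batches, 9.81%, 6.16% and 6.57% higher and 41.3%, 32.1% and 33.2% lower. Of 20 translation factors, 0 were called higher in any batch and 4, 5 and 5 lower, and of 20, 20 and 19 biogenesis genes 1, 1 and 0 were higher and 9, 7 and 5 lower, mostly near or below those shares. The non-ribosomal oligopyrimidine genes had medians of 0.16, −0.14 and −0.15, with 4, 3 and 3 of 21 called higher and 4, 1 and 1 lower; Eef1a1 was at 0.97, 0.65 and 1.34 and Tpt1 at 1.87, 1.09 and 0.77. Respiratory chain genes were called higher in 15 of 83, 29 of 82 and 1 of 81, and lower in 16, 7 and 18. Malat1, a noncoding RNA retained in the nucleus, was at −0.65, −1.98 and −2.13.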

How the data were processed

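Single mouse nuclei and Patch-seq samples were profiled by a modified Smart-seq2 protocol, per the labels' protocols. The submitters' processing notes name TopHat2 2.0.10, Bowtie, RSEM, Seurat 2.2.0 and the mm10 genome, without order or role. The deposited tables of the other regions and of Patch-seq hold TPM as the authors made them. The deposited TRN table holds the natural log of 1 plus a multiple of TPM, found from its values: 236907 values under 2 TPM all lay within 0.1 of a whole step. TPM were recovered by inverting the log and rescaling each column to 1000000; the plan had assumed TPM. Of 3647 labelled samples, 994 had no values and were not analysed here. No column lacked a sample, and no 2 columns were identical.

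The 86 genes and the comparison lists were chosen with earlier results of these data known. TRN nuclei and nuclei of other regions were clustered separately without the 86 genes (2000 variable genes, 30 principal components, 15 neighbours, Leiden, resolution 1, best of 20 starts) and named by markers with thresholds set after the data were seen. No doublet caller was run. Ratios are of mean TPM plus 1, over genes with a mean of at least 5 TPM. No test between groups was run, since the labels name no animal; ranges over plates may be technical. Named were the 8 highest genes of each set, up to 6 per direction at least 1 log2 unit from the ribosomal median in each comparison, the paralog pairs, the stalk genes and Rpsa, genes listed at 0, and the 3 highest genes of each list; others were chosen after their values were seen. Some genes the rule names are not reported here. Gene positions are GENCODE M21 (85 of 86 matched). Alternatives were pseudocounts of 0.1 and 10, other filters, denominators and resolutions, means of log values, windows of detected genes and leaving out each plate. The ratio calculation was checked on simulated data. Tools were leidenalg 0.10.2, igraph 0.11.9, scikit-learn 1.9.0, numpy 2.4.6, scipy 1.17.1 and pandas 2.3.3 under Python 3.11.15.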

Additional observations from a re-analysis of the deposited data

Results flagged for a closer look

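One plate stood apart from the others of its kind. Astrocyte-like nuclei of plate X012116TRNp9 had a median ribosomal protein share of 1.32% of TPM (5 nuclei), while the medians of the other 9 unselected TRN plates ran from 0.692% to 0.985%. The gap to the nearest plate exceeded Dixon's 95% critical value for 10 values. Of 11 sets of plates checked this was the 1 found, and chance gives about 1 in 20 sets.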

How the results depend on the processing

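Depth is unknown for these values, each group counts as 1 sample, and the 4 TRN comparisons cross separately deposited tables. No paired analysis was possible because the replicate numbers only name nuclei and no test between groups was run; classes that share a plate were set side by side by plate for their shares only. The settings without Rn45s, with 1500 to 3000 detected genes and with NP or TRNp plates alone were chosen after seeing the data. Of the alternatives to the values that answer a comparison, 33 moved them and 11 reversed them and the others kept them, apart from leaving out plates. The cause was not tested for any.

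With the 20 most abundant genes left out of the total, the shares were 1.87% in unselected TRN, 1.98% in adjacent tissue, 1.83% in hippocampus with no sort label, 1.31% in somatosensory cortex and 1.75% in striatum, and as means over nuclei 1.90% in hippocampus with no sort label and 1.93% in striatum. Ratios of shares turned or moved as follows. With 1500 to 3000 detected genes, oligodendrocyte-like over neuron-like was 0.871 in place of 1.17 and astrocyte-like over neuron-like 0.490 in place of 0.655. From 3000 to 6000 detected genes the oligodendrocyte-like median of unselected TRN stayed above the neuron-like one, 1.83% against 1.45%. NeuN over unselected was 1.04 from NP plates. TRN over hippocampus was 0.983 without the 20 genes and 0.992 without Rn45s, TRN over M2 cortex 0.988 at resolution 0.5, and batch L004 over nuclei 0.859 with 3000 to 6000 detected genes. With 1500 to 3000 detected genes the L004 median was above that of the nuclei, 2.64% against 1.48%.

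As a difference of mean log2(TPM + 1), the ribosomal medians were −1.39 (oligodendrocyte-like), −2.05 (astrocyte-like), 0.39 (NeuN), −0.28 (hippocampus), 0.73 (M2 cortex), 1.39 (somatosensory cortex), 1.33 (striatum), and 3.81, 3.06 and 1.16 (batches patchseq_170106, patchseq_170204 and L004). Counts past the fold were then 61, 71, 5, 8, 33 and 58 for the first 6, 77 for batch patchseq_170204 and 48 for L004. Rpl31 was 0.11 against striatum (−1.24 by means). With a pseudocount of 10 the counts were 3 (oligodendrocyte-like), 0 (hippocampus) and 1 (M2 cortex), and with 0.1 the NeuN count was 1. Without Rn45s the NeuN count was 1, that of L004 54, and the batch medians 2.15, 1.59 and 1.14. At resolution 0.5 the medians were −0.0412 (hippocampus) and −0.0236 (M2 cortex), with 5 called against M2 cortex.

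Leaving out each plate in turn gave ratios of shares from 0.974 to 1.12 for TRN over hippocampus (below 1 without X041317p2, X041317p6 or X041317p7) and from 0.944 to 1.15 over M2 cortex (below 1 without pfcP4 or pfcP6). Counts past the fold ran from 0 to 1 (NeuN), 0 to 4 (hippocampus), 3 to 14 (M2 cortex), 18 to 30 (somatosensory cortex) and 5 to 10 (oligodendrocyte-like). Ribosomal medians ran from −0.0351 to 0.18 (hippocampus), −0.0646 to 0.44 (M2 cortex) and 0.01 to 0.12 (oligodendrocyte-like). The Patch-seq share ran from 1.63% without batch patchseq_170204 to 2.65% without batch L004.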

Other observations

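A cluster of 47 TRN nuclei that stayed unnamed, led by the microglial genes Fcrls and C1qb together with Neu4 and Ly6c1, had higher ribosomal protein shares than the named classes. Its nuclei had a median of 2.09% in unselected TRN (33 nuclei) and 2.37% in adjacent tissue (11 nuclei), with median detected genes of 2285 and 2049. Between the plates whose names hold NP and those that hold TRNp, the share also differed within classes: it was 1.52% against 1.09% in GABAergic-like nuclei and 1.58% (75 nuclei) against 1.03% (66 nuclei) in glutamatergic-like nuclei.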
